A study of Mus musculus with 4 samples.

Results

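Heavy chain variable (Ighv) segments are the germline gene segments that encode most of the antigen-binding domain of the immunoglobulin heavy chain. Their messenger RNA was described in germinal centre B cells with and without Nsd2, the enzyme that dimethylates histone H3 at lysine 36. Every row whose gene symbol starts with Ighv was taken, pseudogenes included, which gave 138 segments of 20735 listed gene IDs, and a segment missing from a library was set to 0. The 138 segments fall into 15 families, Ighv1 to Ighv15, named by the number before the first hyphen. In each library 126 (ko 1), 122 (ko 2), 130 (wt 1) and 127 (wt 2) segments were listed above 0, and 115 were listed in every library. GENCODE M21 annotates 185 Ighv genes, of which 47 were listed in no library. Of the 138 listed, 29 are annotated as pseudogenes and 109 are not.

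The cells were germinal centre B cells sorted from spleens of 8-week-old C57BL/6 mice immunised with sheep red blood cells (SRBC), a particulate antigen that drives germinal centres. There were 2 libraries from Nsd2 knockout (ko) cells and 2 from wild-type (wt) cells, all from immunised mice. The sources used here give neither how the knockout was made nor whether a Cre was carried. Expression was given as FPKM, fragments scaled to transcript length and library size, with no counts. Relative to wt 1, the depth read from the lowest listed values was 75.5% in ko 1, 77.1% in ko 2 and 94.3% in wt 2. For a typical segment 1 FPKM stood for about 5.11 fragments in ko 1 and 5.63 in ko 2. In wt 1 and wt 2 it stood for about 6.33 and 6.37. This rough scale takes low Ighv values as 1 fragment each, on only 9 (ko 1), 3 (ko 2), 4 (wt 1) and 4 (wt 2) segments. It puts wt 2 no lower than wt 1, unlike the relative depth above. Nsd2 itself, listed as Whsc1, had 31.4 and 34.1 FPKM in ko libraries against 76.9 and 81.4 FPKM in wt libraries (log2 fold change -1.25 ± 0.05 SE, limma adjusted p = 0.000353). Whether the libraries of a genotype stem from different mice is not stated, so the p-values below may measure only technical spread.

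In developing B cells the RAG recombinase joins 1 Ighv segment to a D and a J segment, so that each mature B cell usually transcribes a single productive heavy chain rearrangement. The V promoter lies just before the segment, carries an octamer bound by Oct factors and their coactivator OCA-B (gene Pou2af1), and is driven by enhancers in and beyond the constant region. In germinal centres the rearranged segment is somatically mutated, with AGCT among the preferred targets, and B cells are selected on the receptor that results. The number of cells that use a segment and the RNA of that segment per cell cannot be told apart in bulk RNA. FPKM was assigned to germline gene models, so mutations, clones and productive reading frames are not visible in it.

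The segment with the firmest rise, a pair of identical segments and examples of falls from 3 families are shown by their germline sequence, the last 290 bases of the exon that encodes the variable domain, all on GRCm38 chromosome 12, minus strand, from GENCODE M21. AGCT is in capitals.
Ighv1-80, chr12:115912344-115912633, the segment whose rise held under every alternative tried: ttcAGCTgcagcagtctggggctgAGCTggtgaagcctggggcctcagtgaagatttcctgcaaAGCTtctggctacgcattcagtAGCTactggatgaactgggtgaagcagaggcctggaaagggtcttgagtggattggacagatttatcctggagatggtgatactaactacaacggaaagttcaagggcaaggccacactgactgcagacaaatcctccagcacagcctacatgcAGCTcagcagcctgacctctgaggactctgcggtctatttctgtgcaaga
Ighv1-42, chr12:114937113-114937402, a segment of the same family that fell: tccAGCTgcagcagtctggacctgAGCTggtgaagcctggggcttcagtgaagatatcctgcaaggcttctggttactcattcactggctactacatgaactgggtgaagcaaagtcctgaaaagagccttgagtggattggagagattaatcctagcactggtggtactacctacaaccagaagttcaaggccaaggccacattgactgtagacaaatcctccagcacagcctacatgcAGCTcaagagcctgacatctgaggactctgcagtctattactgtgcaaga
Ighv2-9, chr12:113879096-113879385, a fall near the J segments: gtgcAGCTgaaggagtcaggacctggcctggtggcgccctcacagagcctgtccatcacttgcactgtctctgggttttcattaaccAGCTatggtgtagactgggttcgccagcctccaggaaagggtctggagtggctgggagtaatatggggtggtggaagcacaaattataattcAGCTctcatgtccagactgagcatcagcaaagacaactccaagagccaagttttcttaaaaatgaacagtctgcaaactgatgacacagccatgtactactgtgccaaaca
Ighv5-9, chr12:113661769-113662058, a fall in family Ighv5: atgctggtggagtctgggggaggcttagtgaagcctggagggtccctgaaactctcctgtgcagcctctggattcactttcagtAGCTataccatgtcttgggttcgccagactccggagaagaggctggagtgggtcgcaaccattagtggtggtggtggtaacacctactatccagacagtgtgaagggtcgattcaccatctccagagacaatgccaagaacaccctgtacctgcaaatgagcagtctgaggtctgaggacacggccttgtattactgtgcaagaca
Ighv1-62-2, chr12:115446409-115446698, shown because Ighv1-71 (chr12:115742205-115742494) has the same 290 bases: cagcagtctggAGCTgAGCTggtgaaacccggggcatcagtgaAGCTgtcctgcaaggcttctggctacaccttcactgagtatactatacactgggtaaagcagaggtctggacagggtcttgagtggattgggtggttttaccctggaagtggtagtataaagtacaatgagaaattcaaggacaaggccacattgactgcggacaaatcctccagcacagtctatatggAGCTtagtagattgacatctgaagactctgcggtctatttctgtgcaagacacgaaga
Over these bases Ighv1-80 was 87.6% identical to Ighv1-42, 64.8% to Ighv5-9 and 59.3% to Ighv2-9. The transcripts of Ighv1-62-2 and Ighv1-71 had 0 differences in the last 290 bases and 1 in all of the shorter transcript, so how reads were divided between this pair is uncertain.

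Ighv1 made up most of the Ighv RNA in both genotypes, and its share was higher in ko. This family, also called J558, is the largest of the mouse locus and lies at its far end from the D and J segments, a region whose recombination in precursor B cells is known to need Pax5 and Yy1. Its share of summed Ighv FPKM was 68.2% in ko 1 and 68.5% in ko 2, against 66.9% in wt 1 and 65.8% in wt 2. The genotypes did not overlap, and the difference of the means was 2.06 points (68.4 ± 0.24% in ko and 66.3 ± 0.80% in wt, SD, n = 2 each). In FPKM the 71 listed Ighv1 segments summed to 3315 and 3287 in ko libraries and 3171 and 3043 in wt libraries.

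The shares of 5 other families were lower in both ko libraries than in either wt library. With the 3 whose shares were higher, 8 of 15 families did not overlap, near the 61.2% of all genes averaging 1 FPKM or more whose genotypes did not overlap, so the separation alone is no result about families. Ighv2 took 6.87% and 6.98% in ko libraries against 7.56% and 7.63% in wt libraries. Ighv5 took 4.81% and 4.45% in ko libraries against 5.21% and 5.36% in wt libraries. Ighv6 took 1.22% and 1.10% in ko libraries against 1.52% and 1.45% in wt libraries, the lowest ratio of the 5 at 0.780. Ighv3 took 3.02% and 2.98% in ko libraries against 3.33% and 3.26% in wt libraries. Ighv14 took 3.73% and 3.52% in ko libraries against 3.85% and 4.12% in wt libraries. Like Ighv2, both differed by less than 10% of their own share. No segment of Ighv3 or Ighv14 passed the test of single segments described below. Besides Ighv1, the shares of 2 small families were higher in ko without overlap. Ighv13, represented by the single segment Ighv13-2, took 0.253% and 0.199% in ko libraries against 0.124% and 0.158% in wt libraries. Ighv11, whose segment Ighv11-2 is known from B-1 cells that bind phosphatidylcholine, took 0.085% and 0.074% in ko libraries against 0.038% and 0.054% in wt libraries, but Ighv11-2, its only tested segment, did not pass (log2 fold change 0.47, adjusted p = 0.110).

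The other 7 families overlapped between genotypes. Ighv8 took 5.20% and 5.73% in ko libraries against 5.13% and 5.52% in wt libraries, and Ighv9 took 3.82% and 3.98% in ko libraries against 3.65% and 3.93% in wt libraries. Ighv7, with the anti-phosphocholine segment Ighv7-1, took 1.44% and 1.30% in ko libraries against 1.38% and 1.46% in wt libraries. Ighv4, Ighv10, Ighv12 and Ighv15 each took under 1% in every library. Ighv12-3, the other segment known from phosphatidylcholine-binding B-1 cells, had 4.90 and 3.65 FPKM in ko libraries and 5.78 and 3.94 FPKM in wt libraries, with overlap.

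**Figure D1:**
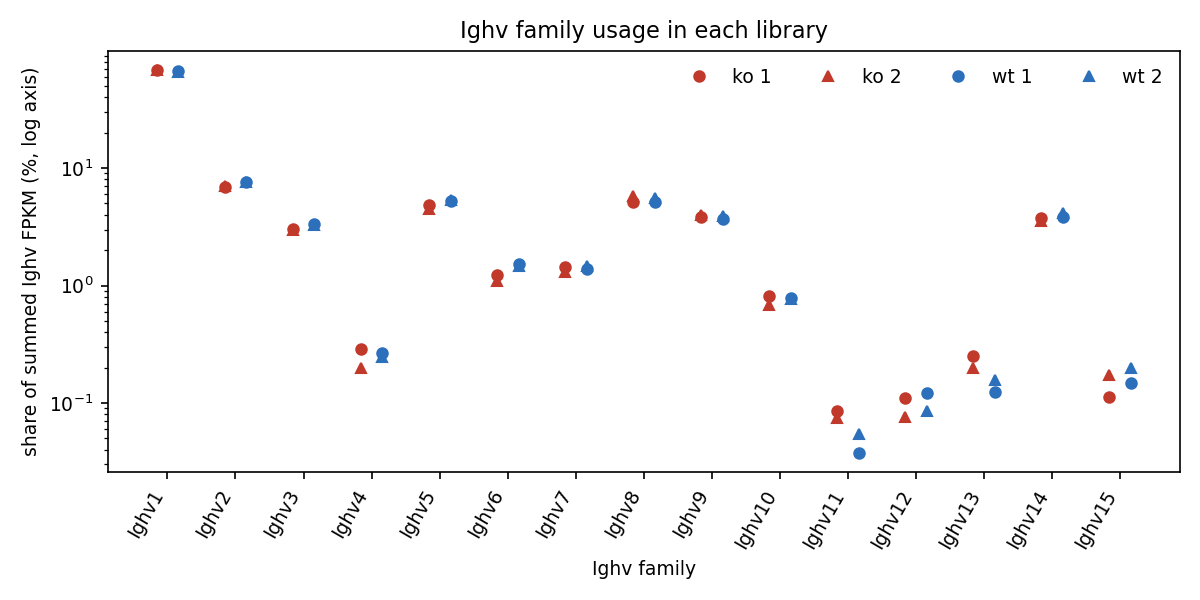
Share of summed Ighv FPKM (%, log axis) of each Ighv family in each library, ko in red left of wt in blue, circles for replicate 1 and triangles for replicate 2. Ighv1 lies at 65.8% to 68.5% in all 4 libraries, every other family lies below 8%, and the genotypes separate by eye for Ighv6, Ighv11 and Ighv13.

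No single segment held more than 5% of the Ighv RNA. The highest was Ighv1-81 in the ko libraries (207.1 and 223.8 FPKM, against 210.7 and 184.2 FPKM in wt libraries) and Ighv1-9 in the wt libraries (198.5 and 210.8 FPKM in ko libraries, against 233.1 and 221.1 FPKM in wt libraries). Neither passed the test (adjusted p = 0.241 for Ighv1-81 and 0.0563 for Ighv1-9). Of the others among the 10 highest, Ighv1-80, Ighv9-3, Ighv8-8 and Ighv1-82 rose in ko and are described below. Ighv1-72, the germline segment of the C57BL/6 antibody response to the hapten NP, had 114.9 and 121.0 FPKM in ko libraries against 128.4 and 140.1 FPKM in wt libraries (log2 fold change -0.18, adjusted p = 0.0533). The genotypes did not overlap for Ighv1-72, but the difference missed the threshold. Its adjusted p lay between 0.0185 and 0.192 over the alternatives tried (0.0401 without wt 1 and 0.0373 with a replicate block), and that of Ighv1-9 between 0.0166 and 0.194. Ighv1-64 (194.2 and 180.6 FPKM in ko libraries, 189.6 and 177.3 FPKM in wt libraries), Ighv1-55 and Ighv1-19 did not pass, with log2 fold changes of 0.03, 0.05 and 0.12.

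Single segments were tested with limma on log2(FPKM + 1), with Benjamini-Hochberg adjustment over all 10883 genes that averaged 1 FPKM or more. Of the 138 segments, 105 reached that mean and 33 did not, with means of 0.0346 to 0.998 FPKM. In ko, 15 of the 105 rose and 17 fell, which is 14.3% and 16.2% of the tested segments, against 6.66% and 6.20% of all tested genes. The rise of the pseudogene Ighv5-21 was in the test only through its ko values. In either direction 30.5% of tested Ighv segments passed the threshold, against 12.9% of all tested genes. The median log2 fold change of the tested segments was 0.00, against 0.01 over all tested genes, and the median size of the change was 0.18, against 0.10. The tested segments thus moved in both directions in nearly equal numbers, whereas relative to the heavy chain constant genes 11 rose and 26 fell. Non-overlap of the genotypes was no more common than among other genes, at 60 of 105 segments (57.1%) against 61.2% of all tested genes. Among the segments past the threshold, 12 differed at least 1.5-fold in mean FPKM and 4 at least 2-fold. With 1 library left out, 21 to 25 segments passed, of which 18 to 23 were among the 32, the fewest without ko 2, and 14 of the 32 passed in all 4 of these fits. With 2 libraries against 2 the smallest two-sided p of an exact permutation test of 1 segment is 0.3333, so each call rests on spread pooled across genes.

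Ighv1-80 had the firmest rise. It had 188.0 and 197.3 FPKM in ko libraries against 120.8 and 118.8 FPKM in wt libraries. The genotypes were far apart and the replicates close, and the log2 fold change was 0.68 ± 0.03 (SE, adjusted p = 0.000690). Its share of the Ighv RNA was 3.99% in ko and 2.56% in wt. The gene lies on GRCm38 chromosome 12 from 115912344 to 115912776. The identical pair rose together, Ighv1-62-2 to 119.4 and 126.4 FPKM in ko libraries, against 86.6 and 82.1 FPKM in wt libraries, and Ighv1-71 to 100.05 and 108.6 FPKM in ko libraries, against 72.7 and 71.4 FPKM in wt libraries (log2 fold changes 0.54 and 0.53, adjusted p = 0.00284 and 0.00329). Summed, which does not depend on how reads were divided between the pair, they had 219.5 and 235.0 FPKM in ko libraries against 159.3 and 153.5 FPKM in wt libraries, a ratio of 1.45. These 2 rises are therefore not independent of each other.

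Other rises were found in the same far region. Ighv1-82 had 148.3 and 136.2 FPKM in ko libraries against 113.1 and 102.4 FPKM in wt libraries (log2 fold change 0.40, adjusted p = 0.0144). Ighv1-77 had 26.5 and 23.0 FPKM in ko libraries against 13.6 and 16.9 FPKM in wt libraries (0.67, adjusted p = 0.0179, and 0.0598 without ko 1). Ighv1-84 had 17.8 and 15.6 FPKM in ko libraries against 12.8 and 11.8 FPKM in wt libraries (0.41, adjusted p = 0.0251, and 0.0536 to 0.0806 without wt 1, ko 1 or wt 2). All these segments were higher in both ko libraries than in either wt library.

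Abundant segments of other families rose with smaller fold changes. Ighv9-3 had 162.3 and 164.8 FPKM in ko libraries against 136.7 and 142.0 FPKM in wt libraries (log2 fold change 0.23, adjusted p = 0.0109, and 0.0523 without ko 2). Ighv8-8 had 145.8 and 160.3 FPKM in ko libraries against 124.7 and 131.5 FPKM in wt libraries (0.25, adjusted p = 0.0283, and 0.0793 and 0.0890 without ko 2 and wt 1), and missed the threshold as usage within Ighv (0.0645) and relative to the constant genes (0.0569). Ighv2-2 and Ighv5-6, both close to the J segments, had log2 fold changes of 0.25 and 0.28 (adjusted p = 0.0222 and 0.0164), and each lost its call without ko 1 (0.0601 for both) or ko 2 (0.0855 and 0.0539), and Ighv5-6 also without wt 1 (0.0627). The rises with the lowest levels were less firm. Ighv13-2 had 12.3 and 9.54 FPKM in ko libraries against 5.86 and 7.33 FPKM in wt libraries (0.65, adjusted p = 0.0331, and 0.0945 and 0.0977 without ko 1 and wt 1). The pseudogene Ighv5-21 had 1.63 and 3.02 FPKM in ko libraries against 0.729 and 0.561 FPKM in wt libraries (0.98, adjusted p = 0.0322, and 0.0717 to 0.0923 without ko 2, wt 1 or wt 2), and it reached the mean of 1 FPKM through the ko libraries. The remaining 3 rises were Ighv1-26, Ighv1-54 and Ighv1-66, with log2 fold changes of 0.25, 0.22 and 0.12. Ighv1-54 and Ighv1-66 lost their calls whichever of the 4 libraries was left out (adjusted p = 0.0717 to 0.123 and 0.106 to 0.133) and with usage within Ighv in place of FPKM.

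**Figure D2:**
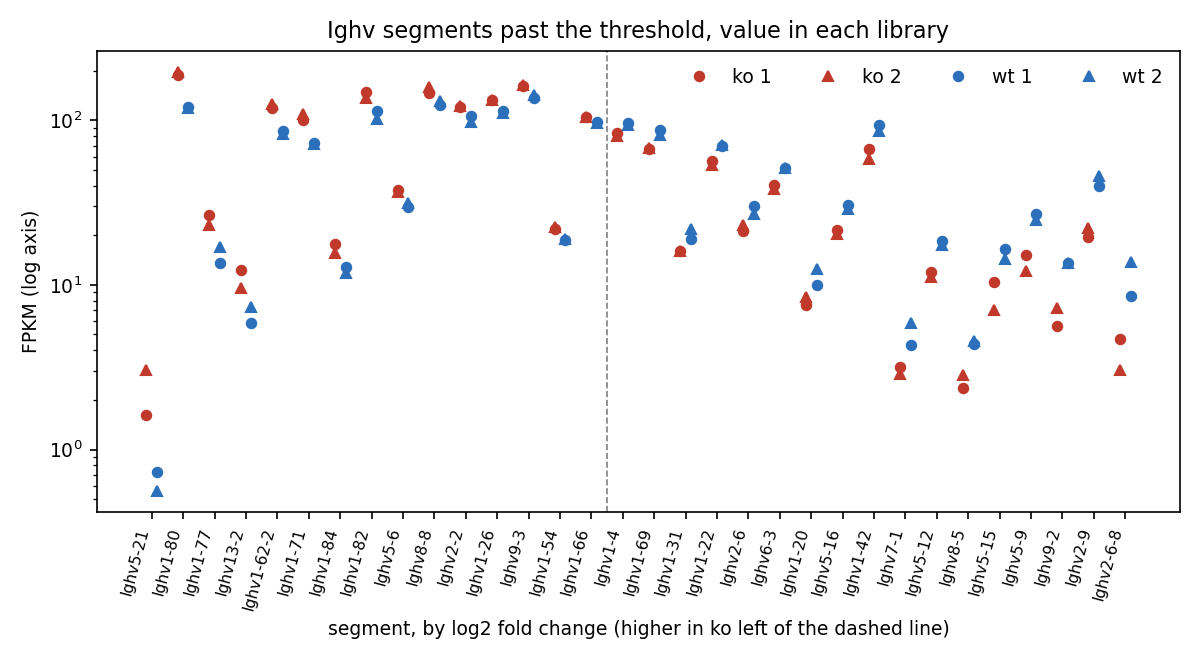
FPKM (log axis) of the 32 Ighv segments past the threshold in each library, ordered by log2 fold change, ko in red left of wt in blue, circles for replicate 1 and triangles for replicate 2. Left of the dashed line are the 15 rises and right of it the 17 falls, and in all 32 both ko values lie on the same side of both wt values.

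Falls were steepest among segments of middle level near the J segments. Ighv2-9 had 19.6 and 22.1 FPKM in ko libraries against 39.9 and 45.6 FPKM in wt libraries (log2 fold change -0.997 ± 0.080 SE, adjusted p = 0.00305). Ighv9-2 had 5.61 and 7.21 FPKM in ko libraries against 13.7 and 13.6 FPKM in wt libraries (-0.99, adjusted p = 0.00729). Ighv5-9 had 15.2 and 12.1 FPKM in ko libraries against 26.8 and 24.7 FPKM in wt libraries (-0.88, adjusted p = 0.00876). In each of these the higher ko library lay well under the lower wt library, and each call held without any 1 library. Ighv2-6-8 had the largest fold change, with 4.68 and 3.04 FPKM in ko libraries against 8.54 and 13.7 FPKM in wt libraries (-1.31 ± 0.23 SE, adjusted p = 0.0213), but its replicates were far apart and its adjusted p was 0.0717 without ko 2.

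Family Ighv5 held 4 falls beside its 2 rises. Ighv5-12 had 12.01 and 11.1 FPKM in ko libraries against 18.6 and 17.6 FPKM in wt libraries (log2 fold change -0.60, adjusted p = 0.00649). Ighv5-16 had 21.4 and 20.3 FPKM in ko libraries against 30.5 and 28.9 FPKM in wt libraries (-0.49, adjusted p = 0.00649). With Ighv5-9 and Ighv5-15 (-0.77, adjusted p = 0.0331, and 0.0553 to 0.104 without wt 2, ko 2 or wt 1) these are 4 of the 10 tested Ighv5 segments. The most abundant member, Ighv5-17, had 69.5 and 59.6 FPKM in ko libraries against 55.7 and 63.4 FPKM in wt libraries and did not pass. Among single segments of other families, Ighv6-3 had 40.6 and 38.001 FPKM in ko libraries against 51.5 and 51.0 FPKM in wt libraries (-0.38, adjusted p = 0.00827). Ighv7-1 had 3.15 and 2.89 FPKM in ko libraries against 4.32 and 5.89 FPKM in wt libraries (-0.59, adjusted p = 0.0386, and 0.0873 to 0.125 without ko 1, wt 2 or ko 2). Ighv8-5 had a log2 fold change of -0.60 (adjusted p = 0.0187, and 0.0580 to 0.0671 without ko 1, wt 1 or wt 2).

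Segments of 1 family moved in opposite directions. Ighv1 held 9 rises and 6 falls among 53 tested segments. Its steepest fall was Ighv1-42, with 66.6 and 57.9 FPKM in ko libraries against 94.3 and 85.6 FPKM in wt libraries (log2 fold change -0.53, adjusted p = 0.0131). The remaining Ighv1 falls were Ighv1-20, Ighv1-22, Ighv1-31, Ighv1-69 and Ighv1-4, with log2 fold changes of -0.44 to -0.22. Ighv1-20 and Ighv1-31 lost their calls without ko 1, ko 2 or wt 2 (adjusted p of up to 0.145 and 0.106), and Ighv1-4 without ko 2 or wt 1 (up to 0.0634). Ighv2 held 1 rise and 3 falls among 8 tested segments, the third fall being Ighv2-6 (-0.35, adjusted p = 0.0251, and 0.0541 to 0.0843 without ko 2, ko 1 or wt 1). Ighv8 and Ighv9 each held 1 rise and 1 fall, of 6 and 4 tested segments. In Ighv9 the abundant Ighv9-3 made up 86.8% of the family in ko and 78.5% in wt. Ighv9-2 took 0.133% of all Ighv RNA in ko and 0.291% in wt. Ighv9-1 and Ighv9-4 were also lower in both ko libraries than in either wt library, but did not pass. The family's share overlapped between genotypes, although Ighv9-3 was higher and the other members lower in ko without overlap. The 7 tested Ighv3 segments and the 4 tested Ighv14 segments held no call. Ighv3-6 (100.2 and 91.3 FPKM in ko libraries, 97.5 and 94.1 FPKM in wt libraries) and Ighv14-2 (70.9 and 65.5 FPKM in ko libraries, 63.5 and 73.6 FPKM in wt libraries) overlapped fully.

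The direction of the changes was not evenly spread along the locus. The listed segments span 2437 kb of chromosome 12, from 113572927 to 116010093, and were ordered by distance from the J segments into 3 groups of 46. The 46 farthest, 1594 to 2580 kb from the J segments, held 50.8% and 51.2% of the Ighv RNA in ko libraries against 47.5% and 47.3% in wt libraries. Both ko values lay above both wt values, by 3.55 points in the mean. The middle 46 held 25.2% and 25.3% in ko libraries against 27.2% and 26.6% in wt libraries, and the nearest 46, at 143 to 892 kb, held 24.1% and 23.5% in ko libraries against 25.3% and 26.1% in wt libraries. Of the tested segments, 9 rose and 2 fell among 36 in the farthest group, 2 rose and 6 fell among 30 in the middle group, and 4 rose and 9 fell among 39 in the nearest group. Their median log2 fold changes were 0.12, -0.08 and -0.13.

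Position and family overlap, since Ighv1 lies in the middle and far groups only. Within Ighv1 the farthest group took 67.0% and 66.5% of the family's FPKM in ko libraries against 63.6% and 63.8% in wt libraries. There it held 8 rises, which again count both members of the identical pair, and 1 fall among 31 tested segments. The middle Ighv1 segments held 1 rise and 5 falls among 22. Within all other families the farthest group took 15.9% and 17.8% in ko libraries against 15.1% and 15.5% in wt libraries, on only 5 tested segments. Without Ighv1-80 the farthest group still held 48.8% and 49.1% in ko libraries against 46.2% and 45.9% in wt libraries. These 3 views were chosen after the data were seen. The segments at the ends of the tested stretch did not pass: Ighv5-2, the nearest, had 4.61 and 6.09 FPKM in ko libraries and 5.62 and 6.13 FPKM in wt libraries, and Ighv1-85, the farthest, had 47.6 and 38.7 FPKM in ko libraries and 36.5 FPKM in both wt libraries. Ighv1-85 passed without ko 2 (adjusted p = 0.0272), but not with all 4 libraries (0.136).

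**Figure D3:**
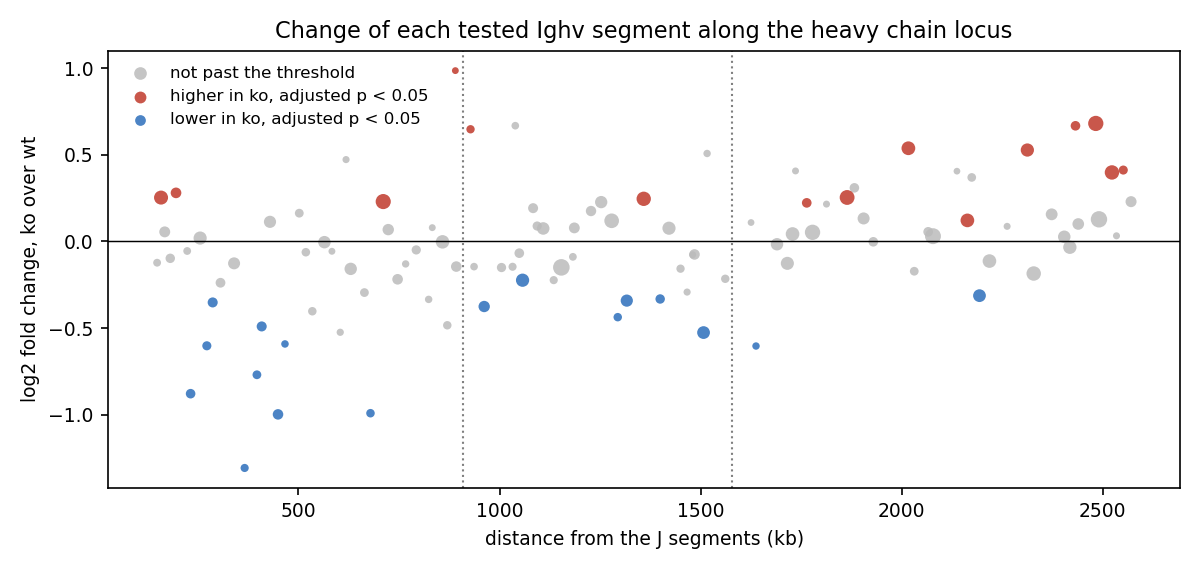
Log2 fold change (ko over wt, on FPKM + 1) of each of the 105 tested Ighv segments against its distance from the J segments in kb, with larger points for higher mean FPKM and dotted lines between the 3 groups of 46 listed segments. Rises (red) gather at the far end with 9 of 15 in the farthest group, and falls (blue) near the J segments with 9 of 17 in the nearest group.

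Libraries of 1 genotype resembled each other more in Ighv usage than libraries of different genotypes did. The share of Ighv RNA that would have to be moved between segments to turn 1 library into another was 4.38% between ko 1 and ko 2 and 3.54% between wt 1 and wt 2, against 7.34% to 8.45% for the 4 pairs of different genotype. Among the 55 segments of at least 20 FPKM, the SD of the log2 difference was 0.28 to 0.30 between genotypes, 0.14 within ko and 0.12 within wt. Over the 3824 genes of 20 to 250 FPKM, it was 0.15 to 0.24 between genotypes, 0.17 within ko and 0.14 within wt. With low segments included, the replicates were less alike. Over all 105 tested segments the SD was 0.40 to 0.47 between genotypes, 0.35 within ko and 0.33 within wt. Over all 10883 tested genes it was 0.24 to 0.26 between genotypes, 0.18 within ko and 0.16 within wt. The ko and wt libraries also differed in depth, and its part in these differences was not tested.

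**Figure D4:**
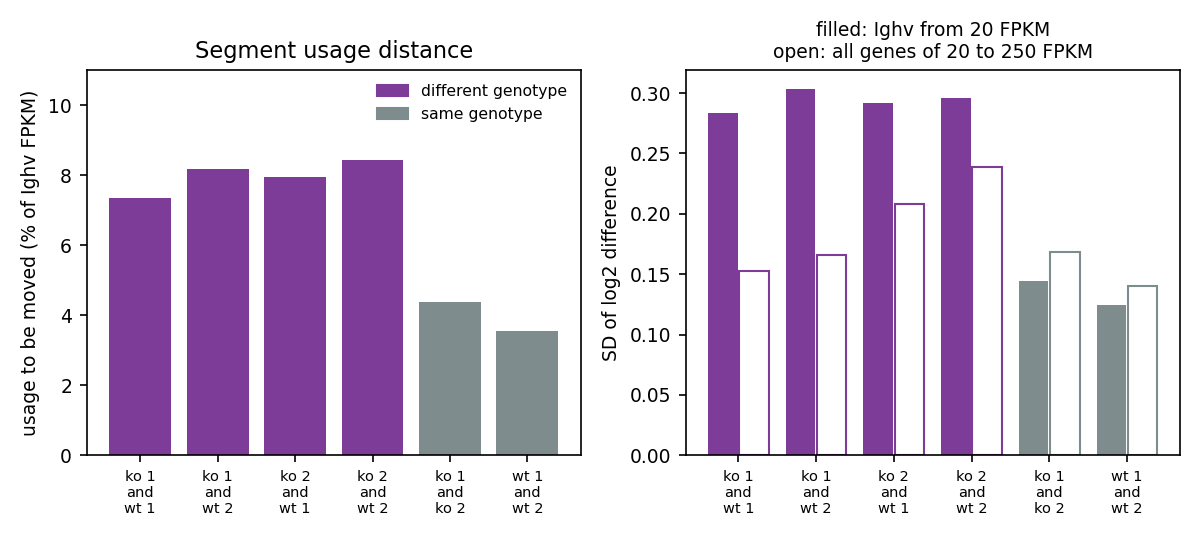
Left, the percent of Ighv FPKM to be moved between segments to turn 1 library into the other, for 4 pairs of different genotype (purple) and 2 of the same genotype (grey). Right, the SD of the log2 difference between the same libraries, over Ighv segments of at least 20 FPKM (filled) and all genes of 20 to 250 FPKM (open), where Ighv segments lie at 0.28 to 0.30 between genotypes and 0.12 to 0.14 within them.

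Total Ighv RNA was nearly equal in the genotypes. Summed Ighv FPKM was 4859 and 4796 in ko libraries against 4740.1 and 4627 in wt libraries, a ratio of 1.03. As a percent of all FPKM it was 1.01% and 0.990% in ko libraries and 0.993% and 0.969% in wt libraries, which overlapped. The constant genes of the heavy chain summed to 4052 and 4123 FPKM in ko libraries against 3847 and 3857 FPKM in wt libraries. Heavy chain messenger RNA joins them to the rearranged V segment. FPKM per gene does not separate it from constant gene RNA without a V segment. Per 100 FPKM of constant genes, Ighv segments had 119.9 and 116.3 FPKM in ko libraries against 123.2 and 120.0 FPKM in wt libraries, so the direction of the total turned when set against the constant genes. Measures of evenness differed slightly and not all in 1 direction. The effective number of segments (the exponential of Shannon entropy) was 60.6 and 59.5 in ko libraries against 62.9 and 63.6 in wt libraries, and the 10 highest segments held 34.1% and 35.5% in ko libraries against 32.6% and 32.4% in wt libraries. The highest segment of each library held 4.26% and 4.67% in ko libraries against 4.92% and 4.78% in wt libraries. None of the 3 measures overlapped between genotypes, the first 2 being less even in ko and the last less dominated by 1 segment.

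All 8 heavy chain constant genes passed the test, with 2 rises and 6 falls. Ighm, the unswitched class, had 3034 and 3108 FPKM in ko libraries against 2696 and 2679 FPKM in wt libraries (log2 fold change 0.19, adjusted p = 0.00749), and Ighd, coexpressed with it in resting B cells, also rose (0.35, adjusted p = 0.0103). The switched classes Ighg1, Ighg2b, Ighg3, Ighg2c, Igha and Ighe fell, with log2 fold changes of -0.79 (Ighe) to -0.16 (Ighg1). No D or J segment was listed. Of 19 tested factors of the V promoter octamer and heavy chain transcription, none rose and 2 fell, both slightly and a smaller share than the 12.9% of all tested genes past the threshold. They were Pou2af1, with 784.8 and 786.2 FPKM in ko libraries against 842.8 and 848.1 FPKM in wt libraries (-0.11, adjusted p = 0.0246), and Spib (-0.09, adjusted p = 0.0437). Pax5 and Yy1 did not pass, Yy1 with 48.9 and 49.0 FPKM in ko libraries and 49.5 and 49.6 FPKM in wt libraries.

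Of 26 tested genes of hypermutation and class switching, none rose and 2 fell, a smaller share than the 12.9% of all tested genes past the threshold, among them Rpa3, a subunit of the single-strand binding protein RPA. Rpa3 had 37.1 and 36.0 FPKM in ko libraries against 42.7 and 41.8 FPKM in wt libraries, without overlap (log2 fold change -0.20, adjusted p = 0.0246). Of 7 tested V(D)J recombination genes, the DNA-bending protein gene Hmgb2 fell (-0.16, adjusted p = 0.0150) and none rose. That share is near the 12.9% of all tested genes past the threshold. Rag1 had 0.112 and 0.108 FPKM in ko libraries and 0.119 and 0.0634 FPKM in wt libraries, and Rag2 and Dntt were not listed. Of 7 tested partners of the heavy chain, Iglc2, a lambda constant gene, rose (0.12, adjusted p = 0.0493), and the receptor signalling chain gene Cd79b (-0.10, adjusted p = 0.0297) and Vpreb3 (-0.18, adjusted p = 0.0173) fell. That is 1 rise and 2 falls, against 6.66% and 6.20% of all tested genes. Over these lists and the constant genes 16 genes passed, and with 1 library left out 6 to 9 passed, 6 without ko 1, 7 without ko 2 and 9 without either wt library.

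Some markers of other B cells were higher in ko. Germinal centre cells arise from naive and follicular B cells. Markers of naive and follicular B cells summed to 280.8 and 277.7 FPKM in ko libraries against 234.4 and 230.2 FPKM in wt libraries. Of the 7, 5 rose and none fell, against 6.66% and 6.20% of all tested genes. Cr2, Fcer2a, Ighd and Cd38 were among the rises. Klf2 (log2 fold change -0.08, adjusted p = 0.446) and Ccr7 (0.37, adjusted p = 0.0713) did not pass. Markers of marginal zone and B-1 cells summed to 178.9 and 181.2 FPKM in ko libraries against 156.8 and 154.2 FPKM in wt libraries. Of the 6 tested, 2 rose and 1 fell, against the same 6.66% and 6.20% of all tested genes. Cr2, with 97.4 and 98.5 FPKM in ko libraries against 82.6 and 81.1 FPKM in wt libraries, is in both lists, so these sums are not independent. The 9 germinal centre markers summed to 1818 and 1841 FPKM in ko libraries and 1825 and 1826 FPKM in wt libraries, which overlapped. Plasma cell markers summed to 1128 and 1129.9 FPKM in ko libraries against 1118 and 1122 FPKM in wt libraries, and none of the 9 tested passed, among them the joining chain gene Jchain and Xbp1. Precursor B cell markers were near 0, at 0.335 and 0.252 FPKM in ko libraries and 0.195 and 0.282 FPKM in wt libraries for the list. None of the 6 T cell markers averaged 1 FPKM, and they summed to 1.86 and 2.01 FPKM in ko libraries against 0.780 and 0.877 FPKM in wt libraries, and those of macrophages to 8.74 and 9.08 FPKM in ko libraries against 6.25 and 5.33 FPKM in wt libraries, where Lyz2 passed the threshold but reached a mean of 1 FPKM only through the ko libraries. Erythroid markers summed to 15.2 and 14.1 FPKM in ko libraries against 9.53 and 13.1 FPKM in wt libraries. The part of any of these cells in the Ighv differences was not tested.

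AGCT, searched on the transcript strand (the motif reads the same on both strands), occurred in 105 of the 109 segments that are not pseudogenes (96.3%), with a median of 4 per segment. For comparison, 85.3% of protein-coding transcripts, the longest of each gene, held it in their first 350 bases. Its density was 9.45 per 1000 bases in these segments against 5.56 in the whole longest transcripts of 21951 protein-coding genes. Both comparisons include untranslated parts, so neither is matched to V segments. The median was 4 in the segments that rose, 3 in those that fell and 4 in the tested segments without a call. Ighv1-80 holds 5 in the bases shown above and Ighv5-9 holds 1, and both Ighv8-8, which rose, and Ighv8-5, which fell, hold none in their transcripts.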

How the data were processed

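FPKM of 4 libraries was computed by the authors before deposit, 1 table of gene ID, symbol, locus and FPKM per library, per the file headers. Per the submitters' processing notes, the mm10 build, TopHat2 2.1.1 and Bowtie2 2.2.9 were used, with no role given. These notes name no FPKM tool, annotation or strand setting, nor how reads aligning to several segments were treated. Genes missing from a table were set to 0. FPKM hides depth, so relative depth was read from steps among low values. GENCODE M21 on GRCm38, the assembly of mm10, gave position, pseudogene status and transcript sequence (20614 of 20735 IDs matched).

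Shares, family sums and distances were computed from FPKM per library, with segments missing from a library at 0. Ighv segments were tested on the log2(FPKM + 1) scale with limma (version 3.58.1, R 4.3.3), its variance trend switched on, and Benjamini-Hochberg adjustment at 0.05 over all tested genes. Fold changes are on that scale, which understates changes of low segments. SE comes from the fit, with 2 residual and 4.39 prior degrees of freedom. The fit was tested on simulated data. Sequence identity used the last 290 bases of each transcript and edlib 1.3.9.post1. Tables were made in pandas 2.3.3 under Python 3.11.15.

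The members, gene lists and tests were chosen with earlier results of these data known. Named segments were the highest of each family, the 10 highest in all, up to 10 rises and 10 falls past the threshold, and the ends of the tested stretch. From each list the 4 most abundant members and all constant genes could be named. Remaining segments past the threshold, and Pax5, Yy1, Rag1, Rpa3, Iglc2, Vpreb3, Xbp1, Cd38 and Ccr7, were named after their values were seen. Some list members are not reported here by name. Searches for the promoter octamer and the recombination signal were not run, since promoter sequence of these segments was not used here.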

Additional observations from a re-analysis of the deposited data

How the results depend on the processing

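All 32 segments past the threshold kept their direction under every alternative run, and Ighv1-80 kept its call in all of them. With no filter on low values, 20735 genes entered, 14 passed in all, and 1 Ighv segment passed (1 rise, 0 falls). With no trend of the spread 11 passed (3 rises, 8 falls). Relative to the constant genes 37 passed (11 rises, 26 falls), and at an adjusted p below 0.10 45 passed (19 rises, 26 falls). Median-of-ratios scaling gave 14 rises and 20 falls, and usage within Ighv 12 and 19. Without 1 library each, 21 to 25 passed (10 to 11 rises, 10 to 15 falls), and 348 to 595 genes in all. Of the pathway list members 16 passed, against 1 with no filter, 3 with no trend, 25 at 0.10 and 6 to 9 without 1 library. The causes of these differences were not tested. Summed Ighv FPKM was 3.07% higher in ko, 1.67% after median-of-ratios scaling, -2.86% relative to the constant genes and 1.86% to 4.28% without 1 library. The share of the farthest segments was 3.55 points higher in ko, 2.997 with the segments in 2 groups instead of 3, 3.34 to 3.77 without 1 library, and, in views added after seeing the data, 2.90 without Ighv1-80, 3.04 within Ighv1 and 1.52 within the other families. The Ighv1 share was 2.06 points higher, 1.49 to 2.62 without 1 library and 1.63 without Ighv1-80. The effective number of segments was lower in ko throughout, with differences of -3.77 to -2.62. For single segments and small families, 641 of 779 alternatives kept the side of the threshold or moved by less than the replicate spread, and none reversed a call. With 2 libraries per genotype, about 5 to 6 fragments per FPKM limit what can be seen for segments of a few FPKM.

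The replicate numbers of ko and wt were also used as a replicate block. The deviations of same-numbered libraries had a correlation of -0.083 over all tested genes and 0.097 over Ighv segments. With only the difference between the replicates of each genotype to compare, this cannot decide whether same-numbered libraries share an origin. The labels do not say. The block left 30 segments past the threshold (13 rises, 17 falls), of which 27 passed without it, 917 genes in all and 12 pathway list members. The Ighv1 share differed by 1.32 points in pair 1 and 2.79 points in pair 2.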

Other observations

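Pseudogene segments gave little RNA. The 29 listed ones held 0.538% and 0.486% of Ighv FPKM in ko libraries against 0.462% and 0.466% in wt libraries, and 7 of them averaged at least 1 FPKM. The highest was Ighv1-2, with 6.71 and 4.95 FPKM in ko libraries against 4.09 and 2.57 FPKM in wt libraries (log2 fold change 0.67, limma adjusted p = 0.0692), without overlap but not past the threshold. Ighv5-21 passed, but reached a mean of 1 FPKM only through the ko libraries, so its call is no support for a rise of pseudogenes. Ighv1-38, Ighv1-70, Ighv1-83, Ighv3-2 and Ighv4-2, which also averaged 1 FPKM or more, overlapped or had adjusted p of 0.278 to 0.892.

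Near copies were few. Over their last 290 bases the tested segments were a median of 95.5% identical to the nearest other annotated segment, listed or not. At 98% or more there were 13 listed segments, of which 10 were tested and 3 passed the threshold. They were Ighv1-62-2 and Ighv1-71, identical to each other, and Ighv1-20, which differs from Ighv1-37 by 4 bases and had 7.53 and 8.45 FPKM in ko libraries against 10.01 and 12.4 FPKM in wt libraries. Ighv1-72 differs from Ighv1-62-3 by 2 bases, so its value could include reads of Ighv1-62-3, which had 11.4 and 10.7 FPKM in ko libraries and 13.4 and 11.8 FPKM in wt libraries.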
